A study of Mus musculus with 224 samples.

Results

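The livers of 8 BALB/cJ mice labelled as day 33 of feeding were compared, 4 fed a diet rich in fat (HFD) and 4 fed chow (RC). They were chosen by the strain, day, diet and tissue labels. They are 8 of 72 liver libraries with values, in a series of 80 liver, 72 soleus muscle and 72 visceral fat samples profiled by RNA sequencing. BALB/cJ is an inbred albino strain. The series also holds DBA/2J and C57BL/6J mice, on HFD or RC, sampled on day 5, day 13 or day 33, with 4 animals of each diet in every group. These days come from the sample labels, whereas the text that describes the series names 5, 13 and again 13 days, so that the length of the last period is not certain. No genetic change or drug is given in the labels. The labels do not state what the diets contained, how old the animals were, their sex, or the hour and feeding state at which they were sampled. The HFD animals are 3HF208, 3HF256, 3HF258 and 3HF259, and the RC animals are 3RC208, 3RC209, 3RC211 and 3RC259. Values of single animals are always given in these 2 orders. Levels are log2 CPM, read counts scaled to the size of the library on a log2 scale, on which 1 unit is a doubling.

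The liver adjusts its metabolism to feeding and fasting through hormones and through an internal clock. Glucocorticoids, steroid hormones of the adrenal gland, act through the glucocorticoid receptor to switch on genes of glucose production and amino acid breakdown, and insulin switches many of them off through FoxO1. The clock is a loop in which CLOCK and BMAL1 bind E-box sequences and drive their own repressors, the Per and Cry proteins, together with D-box binding factors. Drug-metabolising cytochromes are set by the receptors PXR and CAR and by the cellular supply of haem and electrons.

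Genes of these circuits were among those that fell on HFD. Promoter stretches of 6 of them are shown because they hold matches to the sequences through which the clock and the glucocorticoid receptor act. They come from RefSeq (GRCm38.p6), run 5′ to 3′ on the strand of the gene and end before a start that RefSeq annotates. Bases that fall in a GENCODE exon were left out. The stretches of Per1, Fkbp5 and Sgk1 lie at a start inside the annotated span of the gene, those of Ciart, Cyp2b10 and Cyp2a5 outside it. Capitals mark E-boxes (CACGTG), D-boxes (TTATGNAA) and the glucocorticoid response element (AGAACA and TGTTCT with any 3 bases between), each searched on both strands from 250 bases before to 50 bases after the start.
Ciart, a repressor of the clock, chr3:95882252-95882364, minus strand: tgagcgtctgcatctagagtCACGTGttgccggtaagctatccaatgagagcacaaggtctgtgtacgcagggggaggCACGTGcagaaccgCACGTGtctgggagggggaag
Per1, a repressor of the clock, chr11:69098763-69098947, plus strand: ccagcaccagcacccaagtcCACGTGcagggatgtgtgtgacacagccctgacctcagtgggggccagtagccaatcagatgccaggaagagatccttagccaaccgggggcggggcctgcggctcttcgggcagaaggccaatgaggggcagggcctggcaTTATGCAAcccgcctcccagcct
Sgk1, a kinase, chr10:21993681-21993735, plus strand: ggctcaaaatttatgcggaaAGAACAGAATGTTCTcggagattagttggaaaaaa
Fkbp5, a co-chaperone of the glucocorticoid receptor, chr17:28486293-28486338, minus strand: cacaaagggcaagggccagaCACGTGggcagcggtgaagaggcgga
Cyp2b10, a cytochrome P450 induced through CAR, chr7:25897580-25897619, plus strand: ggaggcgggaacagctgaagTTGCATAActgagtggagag
Cyp2a5, a coumarin hydroxylase, chr7:26835248-26835295, plus strand: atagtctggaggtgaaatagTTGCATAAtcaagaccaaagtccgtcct

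An E-box stood in the promoters of 5 of 16 core clock genes with an entry, 4 of 13 clock output genes and 4 of 12 glucocorticoid-induced genes, against 8.09% of all 27025 promoters in the table and 11.7% of the 9671 tested genes with an entry. Per1 was counted in both the core clock and the glucocorticoid-induced list. Among the genes that were lower on HFD, 56 of 497 promoters held an E-box (11.3%) and 28 a D-box (5.63%). Among the genes that were higher, 58 of 469 held an E-box (12.4%) and 17 a D-box (3.62%). A D-box stood in 3.99% of all promoters and in 2.76% of those of tested genes. The full glucocorticoid response element was rare, with 3 of 27025 promoters (0.0111%), and Sgk1 was the gene of the glucocorticoid list with a match. This element was added to the search after the values had been seen. A match of letters is a description and not a site shown to be bound.

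The 8 libraries held 1.95e+07 to 2.38e+07 reads, recovered from the deposited values, and the diets overlapped in depth (exact permutation test, two-sided, p = 0.286; 0.0286 is the smallest value that 4 against 4 can give). Hepatocyte genes dominated every library, with Alb, the serum albumin gene, at 15.72 to 15.88 on HFD and 15.99 to 16.36 on RC (log2 CPM). The summed level of 11 hepatocyte genes was 93213 to 96497 CPM on HFD and 107410 to 125900 CPM on RC, without overlap. Without the scaling factors described below it was 101790 to 106790 and 106450 to 118130, which overlap. In the fit 2 of these genes were lower and 1 higher on HFD, and without the factors 0 and 2. The summed level of Kupffer cell and macrophage markers was 134 to 207 CPM against 173 to 237, and that of stellate cell and fibroblast markers 306 to 431 against 390 to 552. Of the pancreatic acinar markers only Cela1 was in the table, at 17.2 to 33.01 CPM against 14.2 to 16.4. The scaling factors in the deposited values also separated the diets, at 1.09 to 1.11 on HFD and 0.923 to 1.01 on RC. Their part in the results was not tested beyond the values without them given below. In bulk tissue, fewer cells of a type and less RNA per cell cannot be told apart.

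Of 12611 genes tested, 1210 differed between the diets at an adjusted p under 0.05 (9.59%; limma with Benjamini-Hochberg adjustment). On HFD 589 were higher (4.67%) and 621 lower (4.92%), and 3030 had an unadjusted p under 0.05. The median log2 fold change of all genes was 0.0047. The 4 HFD values lay above all 4 RC values for 1051 genes (8.33%) and below them for 831 (6.59%), together 1882 (14.9%). Without the scaling factors the median of all genes moved by 0.19, and 2408 genes were higher and 312 lower. The direction was kept there by 99.9% of the 1210 genes. These genes were called from the same animals, so that a kept direction was likely beforehand and is no test. P-values weigh a difference against the spread between animals within a group. This spread was estimated for each gene over all 18 groups of the 72 liver libraries, and need not be that of these 8 animals. With only these 8 libraries in the fit 574 genes passed, 444 of them among the 1210. With the 24 BALB/cJ libraries 429 passed, 402 of them among the 1210.

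**Figure D1:**
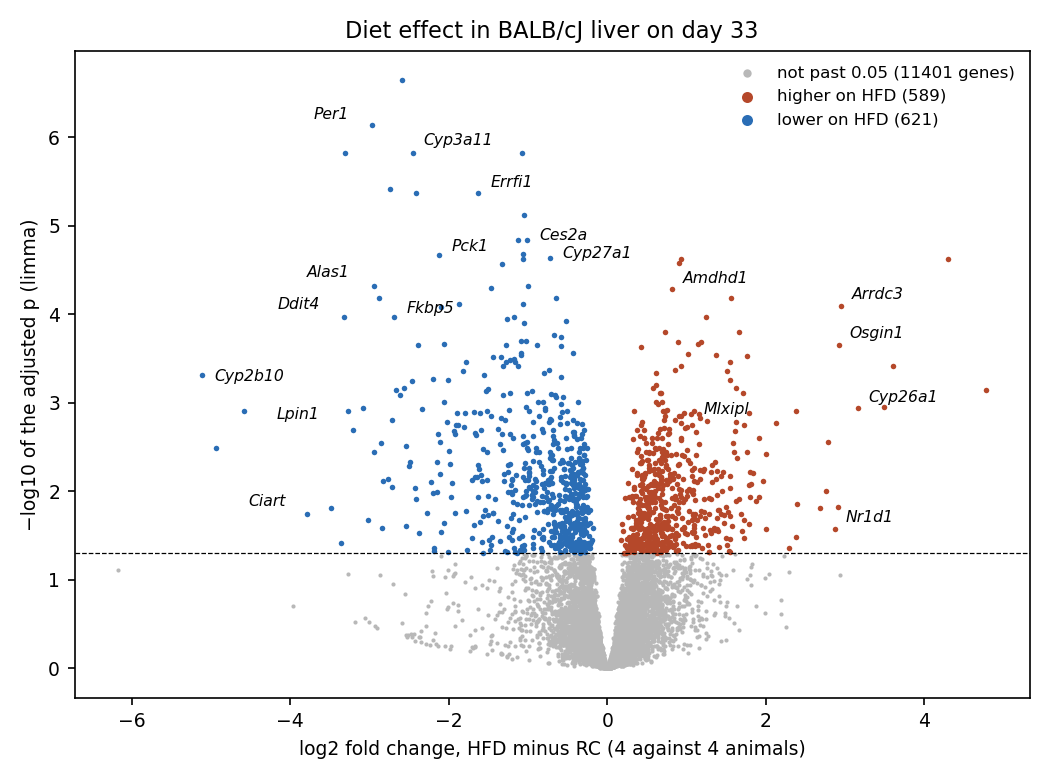
Each point is 1 of 12611 genes in BALB/cJ liver on day 33, by its log2 fold change of HFD against RC (x axis) and the negative log10 of its adjusted p from limma (y axis), with the 589 higher and 621 lower genes in colour and some genes of the text labelled. All genes lie between -6.17 and 4.78, and of those labelled Cyp2b10 lies lowest at -5.11 and Cyp26a1 highest at 3.17.

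Most glucocorticoid-induced genes were lower on HFD. Of 14 measured members 12 fell and none rose, with a median log2 fold change of -2.04. Fkbp5 (ENSMUSG00000024222, chromosome 17, 28399094 to 28517527, GRCm38) stood at 3.45, 7.32, 5.48 and 4.83 on HFD and at 8.39, 8.83, 8.26 and 6.35 on RC. The lowest RC animal, 3RC259, lay below the highest HFD animal, 3HF256, so the diets overlapped. The difference was -2.69 ± 0.46 (log2, SE; adjusted p = 0.000108), a 6.45-fold lower level. Sgk1, a kinase of ion and glucose transport, stood at 3.57, 3.55, 3.34 and 4.21 against 5.03, 5.97, 6.15 and 4.70. Its diets did not overlap, and it fell by 1.80 ± 0.38 on the log2 scale (adjusted p = 0.00129). Errfi1, an inhibitor of the EGF receptor, stood at 8.68, 9.42, 8.61 and 9.24 against 10.59, 10.75, 10.78 and 10.33. Here every RC animal was high, 3RC259 included, and the level fell by 1.63 ± 0.23 (adjusted p = 4.3e-06). Tsc22d3, which encodes the anti-inflammatory protein GILZ, fell by 1.92 ± 0.43 without overlap (adjusted p = 0.00225). The phosphatase Dusp1 (adjusted p = 0.0112) and the transcription factor Klf9 (-0.64) also fell.

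The metallothioneins Mt1 and Mt2, which bind zinc and copper, varied widely within both diets. Mt2 stood at 2.58, 5.47, 2.71 and 1.76 on HFD and at 7.77, 8.45, 6.12 and 3.62 on RC. It fell by 3.36 ± 1.09 (adjusted p = 0.038), and Mt1 by 2.84 ± 0.87 (adjusted p = 0.0261). Both lost the call when single animals were left out, with adjusted p up to 0.193 for Mt2. The transcription factor Zbtb16 (-2.20, adjusted p = 0.0893) and the siderophore-binding protein Lcn2 (-1.95, adjusted p = 0.185) did not pass. Without 3RC208 or 3RC209, 7 of the 14 genes passed, and 8 without 3HF208, 3HF258 or 3HF259. With only the 8 libraries in the fit 7 passed.

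The core clock did not move as 1 block. Of 19 members 4 fell and 1 rose, with a median of -0.40. Per1 (ENSMUSG00000020893, chromosome 11, 69095217 to 69109960), whose promoter is shown above and which glucocorticoids also induce, stood at 1.17, 3.91, 2.06 and 2.16 on HFD and at 5.51, 5.51, 5.74 and 4.40 on RC. All 4 HFD animals were lower than the lowest RC animal. The level fell by 2.97 ± 0.38 (adjusted p = 7.27e-07), a 7.81-fold difference. Ciart, whose promoter holds 3 E-boxes, stood at -1.62, 1.04, 0.25 and -1.99 against 3.98, 4.16, 3.56 and 1.13, again without overlap, and fell by 3.79 ± 1.10 (adjusted p = 0.0182). Nr1d1, which encodes the clock repressor REV-ERB alpha, moved the other way, at 6.46, 4.50, 6.15 and 2.98 against 2.41, 2.37, 1.75 and 2.06. It rose by 2.87 ± 0.88 (adjusted p = 0.0263), and the HFD animals ranged widely while the RC animals were all low. Leaving out each animal in turn gave adjusted p from 0.00636 to 0.0815 for Ciart and from 0.0119 to 0.122 for Nr1d1. The nuclear receptor Rora (-0.75) and the D-box factor Hlf (-0.60) fell as well.

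Some further clock genes did not pass. Arntl, which encodes BMAL1, had a log2 fold change of -0.11 ± 0.88 (adjusted p = 0.963), Dbp, the D-box binding activator, 0.56 ± 1.34 (0.852), and Per2 -0.62 ± 0.42 (0.378). The standard errors of Arntl and Dbp are large, so that differences of this size were not detectable with 4 animals of each diet. That of Per2 was smaller. Without 3HF208 or 3RC209, 1 core clock gene fell, and 2 did without 3HF258, 3RC208 or 3RC211 or with only the 8 libraries in the fit.

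Clock output genes, which follow the clock in liver, fell in 6 of 14 and rose in none (median -0.79). Usp2, a ubiquitin protease, stood at 0.99, 4.73, 1.61 and 2.64 against 6.43, 6.01, 5.39 and 4.95 and fell by 3.20 ± 0.71 (adjusted p = 0.00204). Alas1, the rate-limiting enzyme of haem synthesis, stood at 5.58, 7.98, 5.97 and 6.80 against 10.21, 9.09, 9.57 and 9.26. All RC animals were higher, and Alas1 fell by 2.95 ± 0.48 (adjusted p = 4.74e-05). Por, the reductase that passes electrons to cytochromes P450, fell by 2.01 ± 0.39 (adjusted p = 0.000546), with 3HF256 at 8.68 above 3RC259 at 8.18. The uridine phosphorylase Upp2 fell by 2.22 and the tetraspanin Tspan4 by 0.74.

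Genes of glucose production fell in 5 of 12, with none higher (median -0.49). The lists share members, as Pck1 also counts as glucocorticoid-induced and Tat also counts in amino acid breakdown below. Pck1 (ENSMUSG00000027513, chromosome 2, 173153048 to 173159273), which makes phosphoenolpyruvate in gluconeogenesis, stood at 9.92, 11.004, 9.04 and 9.84 against 12.51, 12.72, 12.36 and 10.71. Only 3RC259 reached into the range of the HFD animals, and the level fell by 2.13 ± 0.33 (adjusted p = 2.13e-05), 4.36-fold. Tat, the tyrosine aminotransferase, stood at 9.13, 9.88, 9.25 and 9.85 against 12.10, 12.65, 12.25 and 10.65 and fell by 2.39 ± 0.43 (adjusted p = 0.00022). The coactivator Ppargc1a (-0.93), the insulin-regulated factor Foxo1 (-0.92) and the glucose 6-phosphate transporter Slc37a4 (-0.69) fell less. G6pc, the glucose 6-phosphatase, was at -0.28 ± 0.40 (adjusted p = 0.727). The FoxO1 target Igfbp1, a binding protein of insulin-like growth factors, stood at 4.99, 4.85, 3.45 and 3.85 against 6.76, 7.36, 6.82 and 4.60 and fell by 2.10 ± 0.65 (adjusted p = 0.0291). It lost the call without 3HF258, 3HF259, 3RC208, 3RC209 or 3RC211 (adjusted p up to 0.147). Without 3RC208, or with only the 8 libraries in the fit, 2 genes of this list fell, and 3 without 3HF208 or 3RC209. Without the scaling factors 4 fell and 1 rose.

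Amino acid breakdown and the urea cycle held 12 genes of 36 that fell and 2 that rose (median -0.32). The urea cycle was among them, with argininosuccinate lyase Asl (-1.08 ± 0.20, adjusted p = 0.000277), Cps1 (-0.65) and Arg1 (-0.64). So were the alanine aminotransferase Gpt2 (-0.86), the tryptophan dioxygenase Tdo2 (-0.86) and the lysine-degrading enzyme Aass (-0.69). The cystathionine synthase Cbs (0.74 ± 0.18, adjusted p = 0.00502) and the glyoxylate aminotransferase Agxt (0.57) were higher. Without the scaling factors this list held 7 lower and 8 higher genes, with quantile normalization 5 and 5, and without 3RC209 it held 4 lower and 1 higher, without 3HF208 5 and 1, and with only the 8 libraries in the fit 3 and 1.

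**Figure D2:**
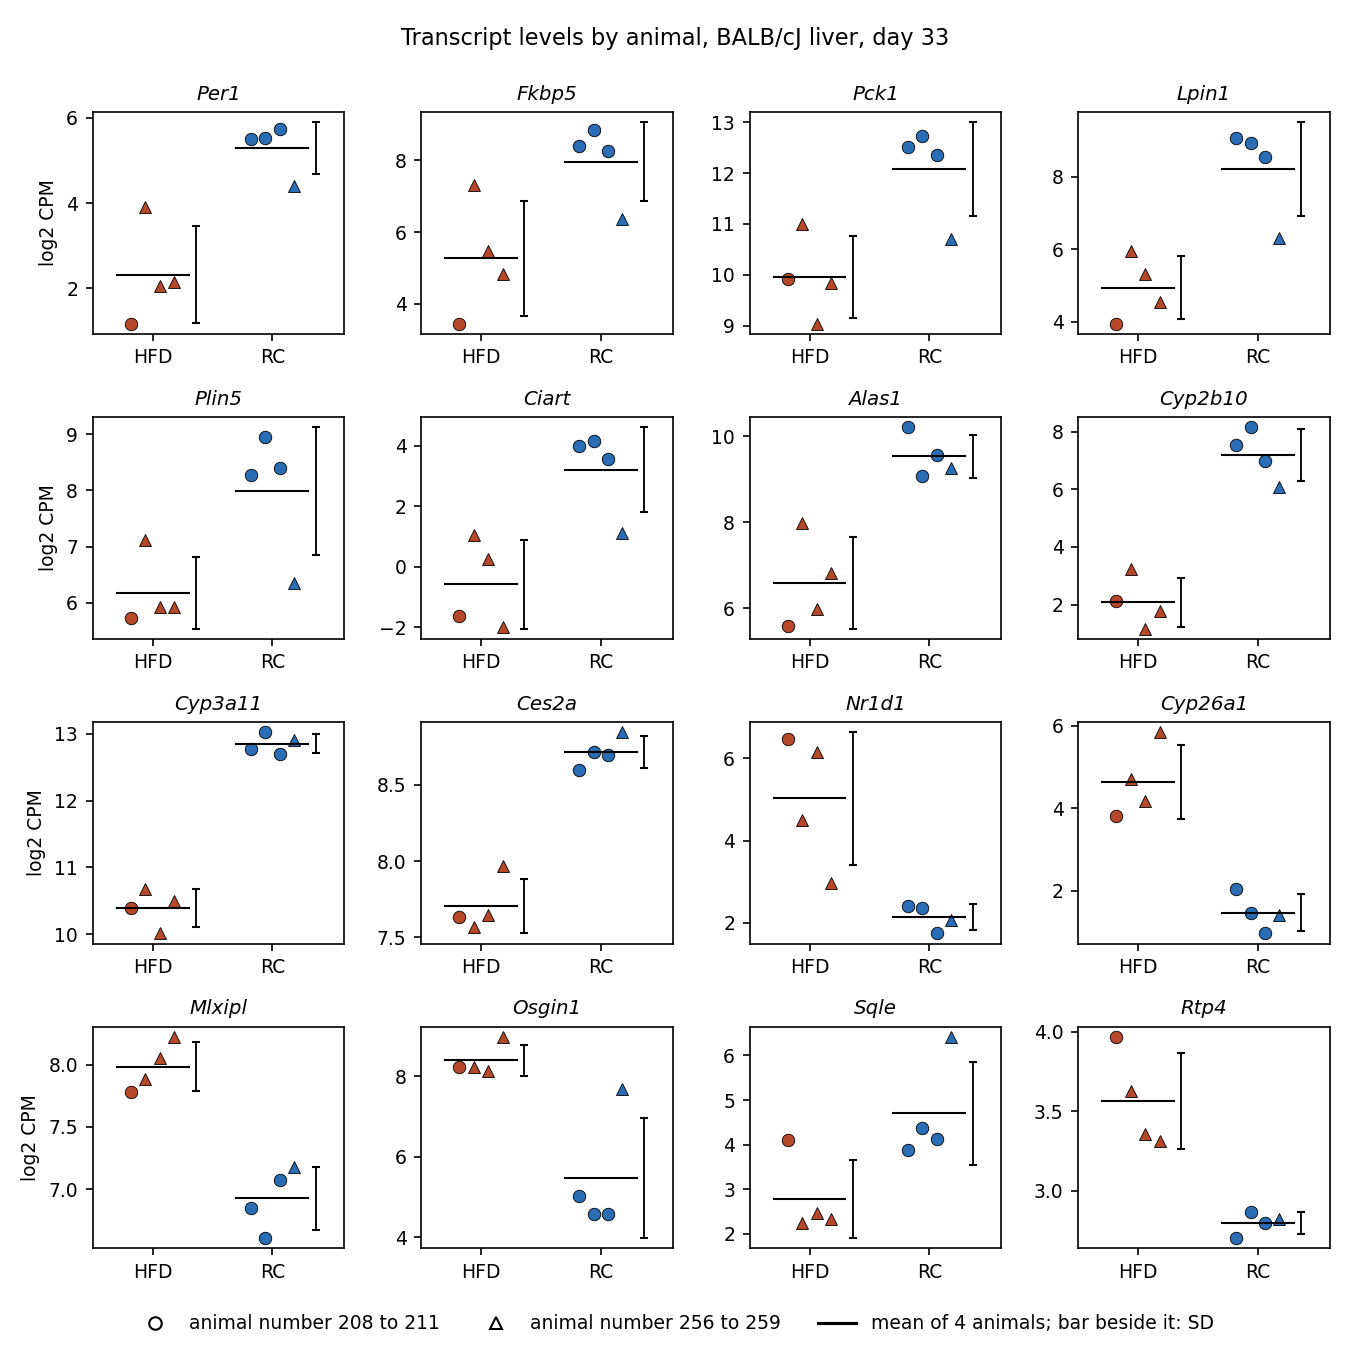
Levels (log2 CPM) of 16 genes in the 4 HFD and 4 RC animals of BALB/cJ on day 33, with circles for animals of the lower number range (3HF208, 3RC208, 3RC209 and 3RC211), triangles for the upper (3HF256, 3HF258, 3HF259 and 3RC259), a line for the mean and a bar for 1 SD. In the panels of Fkbp5, Pck1, Lpin1 and Plin5 the RC animal 3RC259 lies nearest to the HFD animals, while in those of Cyp3a11 and Ces2a all RC animals lie together above them.

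Several genes of drug and steroid metabolism fell, cytochromes among them. Cyp2b10 (ENSMUSG00000030483, chromosome 7, 25897620 to 25926624) stood at 2.13, 3.23, 1.17 and 1.77 on HFD and at 7.54, 8.15, 6.99 and 6.07 on RC. The diets were far apart, by 5.11 ± 0.99 (log2, SE; adjusted p = 0.000487), a 34.6-fold lower level on HFD. Cyp3a11 (ENSMUSG00000056035, chromosome 5, 145854426 to 145879964), the main drug-oxidising cytochrome of mouse liver, stood at 10.40, 10.68, 10.01 and 10.51 against 12.77, 13.02, 12.70 and 12.91. Animals of 1 diet lay close together, 3RC259 among the others, and the level fell by 2.45 ± 0.33 (adjusted p = 1.53e-06), 5.46-fold. Cyp2a5 stood at 7.22, 6.59, 7.12 and 6.39 against 10.37, 9.28, 8.37 and 8.97 and fell by 2.42 ± 0.66 (adjusted p = 0.0122; 0.0745 without 3RC208).

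In all, 7 of 31 Cyp3a and Cyp2 genes fell and 1, Cyp2u1, rose (1.32 ± 0.34), with a list median of -0.25. If the scaling factors were left out, 5 fell and 4 rose. Cyp2b9 (2.94, adjusted p = 0.0886) and Cyp2b13 (2.00, adjusted p = 0.0957), relatives of Cyp2b10, had values on the other side that did not pass. Nr1i2, which encodes PXR, fell by 0.66 ± 0.19 (adjusted p = 0.0164), whereas Nr1i3, which encodes CAR, was at -0.25 ± 0.25 (0.578). Cyp26a1, which breaks down retinoic acid, was higher as well, at 3.80, 4.70, 4.19 and 5.85 against 2.04, 1.45, 0.96 and 1.42. It rose without overlap by 3.17 ± 0.66 (adjusted p = 0.00116), 8.98-fold. Reads can be shared among Cyp3a, Cyp2 and Ugt copies, so that single members are uncertain.

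Conjugating enzymes were lower in part. Of 21 genes of glucuronidation and sulfation 7 fell and none rose (median -0.42), such as Ugt2b38 (-2.14), Sult1d1 (-1.66 ± 0.37, adjusted p = 0.00233), Sult5a1 (-1.25) and Ugt1a9 (-1.21). Without 3RC209, 3 of them fell, and 4 without 3HF208, 3HF258 or 3RC208. Leaving out the scaling factors gave 4 that fell and 1 that rose. The carboxylesterase Ces2a stood at 7.63, 7.57, 7.64 and 7.97 against 8.60, 8.72, 8.70 and 8.85. Its diets were apart by more than the spread within either, and it fell by 1.01 ± 0.15 (adjusted p = 1.47e-05). Ces2c fell by 2.11, and these were 2 of 14 carboxylesterases. Of 21 glutathione transferases 2 fell, Gsta2 (-1.57) and Gstm2 (-1.14), and 1 fell and 2 rose without the scaling factors. None of them passed without 3HF258, 3HF259, 3RC208 or 3RC209, and 1 fell without 3HF208, 3HF256 or 3RC211. The organic anion transporter Slco1a4, another gene of this response, fell by 1.89 ± 0.40 without overlap (adjusted p = 0.00129).

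Lipid genes gave several small groups. The lipins, phosphatidate phosphatases of triglyceride synthesis, were lower. Lpin1 (ENSMUSG00000020593, chromosome 12, 16535669 to 16610966) stood at 3.95, 5.95, 5.32 and 4.55 against 9.06, 8.94, 8.55 and 6.31 and fell by 3.27 ± 0.68 (adjusted p = 0.00123), 9.65-fold. Every RC animal was above every HFD animal, with 3RC259 lowest of the RC animals. Lpin2 fell by 1.78 ± 0.33 (adjusted p = 0.000344), and the acyltransferases Gpat4 and Dgat2 by 0.72 and 0.50, so that 4 of 12 genes of the list fell, and 2 with only the 8 libraries in the fit. Of 14 lipid droplet proteins 3 fell, the muscle and liver perilipin Plin5 (-1.81 ± 0.40, adjusted p = 0.00187), the triglyceride lipase Pnpla2 (-0.81) and Fitm2 (-0.73). With only the 8 libraries in the fit 1 fell, and without the scaling factors 4 fell and 1 rose. Plin2, the main droplet coat of hepatocytes, was at -0.08 ± 0.32 (adjusted p = 0.921).

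Fatty acid synthesis held 2 of 14 genes that rose and none that fell. Mlxipl, which encodes the carbohydrate sensor ChREBP, stood at 7.78, 7.88, 8.05 and 8.22 against 6.85, 6.60, 7.08 and 7.17. The diets did not overlap, and it rose by 1.06 ± 0.22 (adjusted p = 0.00134). Srebf1 rose by 1.27 ± 0.42 (adjusted p = 0.0402), with overlap, and lost the call without 3HF258, 3HF259, 3RC208, 3RC209 or 3RC211 (adjusted p up to 0.232). The synthetic enzymes Fasn (0.30 ± 0.56), Acaca (0.43 ± 0.29) and Scd1 (-0.45 ± 0.69) did not pass. Of 18 genes of mitochondrial fatty acid oxidation 0 passed in limma (2 at an unadjusted p under 0.05), with a median of -0.05. The values ran from -0.39 ± 0.19 for the enoyl-CoA isomerase Eci2 to 0.06 ± 0.12 for the electron carrier Etfdh, and Cpt1a, which admits fatty acids to the mitochondrion, was at -0.16 ± 0.21.

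Cholesterol synthesis depended on the animal. Of 21 genes 3 fell, Sqle among them (-1.92 ± 0.55, adjusted p = 0.0173), with a list median of -0.42. Sqle, the squalene epoxidase, stood at 4.09, 2.24, 2.46 and 2.33 on HFD and at 3.89, 4.37, 4.13 and 6.42 on RC. The highest animal of each diet stood apart from the other 3, 3HF208 on HFD and 3RC259 on RC. Without 3RC259 the adjusted p was 0.108 for Sqle, and 1 gene of the list fell. Sqle also lost the call without 3HF256, 3HF258 or 3HF259 (highest 0.0596). Likewise 1 gene fell without 3HF258 or 3HF259, and 2 without 3HF208, 3HF256 or 3RC208.

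Bile acid and secretory genes changed singly. Cyp27a1, the sterol 27-hydroxylase, stood at 8.49, 8.58, 8.48 and 8.67 against 9.19, 9.53, 9.39 and 9.02, and fell by 0.73 ± 0.11 (adjusted p = 2.28e-05). Cyp7a1, which opens the classical pathway to bile acids, ranged from 1.17 to 6.17 on HFD and from 5.05 to 7.76 on RC and did not pass (-1.95 ± 0.76, adjusted p = 0.0892). The bile salt export pump Abcb11 was higher, by 0.75 ± 0.18 (adjusted p = 0.00393). Among secreted regulators of lipoprotein lipase, Angptl4 fell (-1.82 ± 0.35, adjusted p = 0.000434), while Angptl8 rose (1.79 ± 0.54, adjusted p = 0.0236; up to 0.163 without 3HF258, 3HF259, 3RC208 or 3RC209). Acute phase proteins fell in 4 of 22, such as Saa4 (-1.47) and Orm1 (-1.23), in 1 without 3HF258, 3RC209 or 3RC211 and in 2 without 3HF208 or 3HF256. Without the scaling factors 2 fell and 1 rose, and with only the 8 libraries in the fit 1 fell. Lists in which 0 genes passed in limma held 17 apolipoprotein and lipoprotein assembly genes (3 at an unadjusted p under 0.05), 22 of the respiratory chain (3), 20 ribosomal proteins (0), 12 desaturases and elongases (3) and 7 of ketone body synthesis (1).

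Some interferon-stimulated genes rose. Of 31 measured members 10 rose and none fell, with a median log2 fold change of 0.48. Rtp4, an antiviral effector, stood at 3.97, 3.63, 3.36 and 3.31 on HFD and at 2.70, 2.87, 2.79 and 2.82 on RC. The diets did not overlap, and it rose by 0.77 ± 0.18 (adjusted p = 0.00293). Irf9, the DNA-binding subunit of the interferon-activated complex ISGF3, stood at 4.94, 5.00, 4.86 and 4.81 against 3.99, 4.04, 4.38 and 4.46 and rose by 0.69 ± 0.14 (adjusted p = 0.000981). The RNA sensor Ddx58 rose by 0.61, the GTPases Igtp and Gbp7 by 0.80 and 0.94, the peptide transporter Tap1 by 0.84 and Xaf1 by 0.94. Classical members such as Isg15 (0.50, adjusted p = 0.209), Ifit1 (0.41, 0.352) and Irf7 (-0.13, 0.706) did not pass. Without 3RC209, 6 members rose, with only these 8 libraries in the fit 4, among genes of at least median level 5, within the upper number range 0, and without the scaling factors 18. Of 6 MHC class II genes and 3 markers of T, natural killer and B cells 0 passed, and 0 had an unadjusted p under 0.05. The summed level of these 3 markers was 9.46 to 23.9 CPM on HFD and 13.7 to 17.2 CPM on RC.

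Single genes outside these lists rose or fell as far. Arrdc3, an arrestin-domain protein, stood at 7.15, 7.25, 8.69 and 7.92 against 4.28, 4.33, 4.45 and 6.15 and rose by 2.95 ± 0.50 (adjusted p = 7.99e-05). Osgin1, an oxidative stress-induced growth inhibitor, stood at 8.24, 8.24, 8.13 and 8.98 against 5.02, 4.58, 4.58 and 7.70 and rose by 2.93 ± 0.53 (adjusted p = 0.000219). In both genes 3 RC animals lay close together and 3RC259 lay above them. Serpina7, the thyroxine-binding globulin, rose by 2.01, and the inhibitors of DNA binding Id2 and Id3 by 1.46 and 1.22. Among the genes that fell, Ddit4, a stress-induced inhibitor of mTORC1, stood at 2.36, 2.01, 2.20 and 2.60 against 5.76, 6.63, 5.60 and 4.48. The HFD animals lay close together, and it fell by 3.32 ± 0.57 (adjusted p = 0.000108). The stress gene Gadd45b fell by 2.95 and the kinase Pim3 by 2.42.

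The animals carry numbers in 2 ranges, which the labels do not explain and which partly coincide with the diets. The lower range holds 3HF208, 3RC208, 3RC209 and 3RC211, and the upper 3HF256, 3HF258, 3HF259 and 3RC259. Within the lower range, where 3HF208 stands against 3 RC animals, 1299 genes passed, and within the upper range, where 3 HFD animals stand against 3RC259, 30 genes passed. A lone animal was assumed to vary like the other groups. Of the 1210 genes 99.3% kept their direction in the lower range and 93.8% in the upper. The median ratio to the log2 fold change of all animals was 1.31 and 0.553. These genes were called from the same animals, so that a kept direction was likely beforehand.

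The gene groups, which share some members, differed in these values. The median of the glucocorticoid-induced genes was -2.50 in the lower and -0.63 in the upper range, that of gluconeogenesis -1.02 and -0.10, and that of interferon-stimulated genes 0.72 and 0.09. Fkbp5 had -5.04 and -0.48, Lpin1 -4.90 and -1.04, and Plin5 -2.80 and -0.02. Single drug-metabolising genes were low in both, with -2.43 and -2.51 for Cyp3a11, -1.04 and -1.12 for Ces2a, and -5.43 and -4.01 for Cyp2b10. The medians of their lists were smaller in size, at -0.13 and -0.14 for Cyp3a and Cyp2 genes and -0.28 and -0.41 for carboxylesterases. Cholesterol synthesis had a median of 0.30 in the lower range and -1.21 in the upper, with -0.04 and -4.07 for Sqle. In the upper range 7 of the 131 named genes passed: Sqle, Cyp3a11, Ugt1a9, Errfi1, Ces2a, Slc39a4 and C2, all lower on HFD. Range, diet and single animals cannot be told apart where 1 animal makes up a group. With the range as a covariate over all liver libraries, 1261 genes passed.

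Some calls were lost with 1 animal fewer. All 1210 called genes kept their direction in each of these fits, which was likely beforehand, as the same animals gave the calls. Besides Ciart, Nr1d1, Mt1, Mt2, Igfbp1, Srebf1, Angptl8, Cyp2a5 and Sqle, the following genes described above lost the call when 1 or more of the animals was left out: Dusp1, Klf9, Rora, Hlf, Upp2, Tspan4, Foxo1, Ppargc1a, Slc37a4, Cps1, Arg1, Tdo2, Aass, Agxt, Nr1i2, Sult5a1, Ugt1a9, Gsta2, Gstm2, Dgat2, Pnpla2, Fitm2, Orm1, Igtp, Gbp7, Tap1, Ddx58 and Id3. Their highest adjusted p when 1 animal was left out lay between 0.05003 for Tap1 and 0.225 for Agxt.

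**Figure D3:**
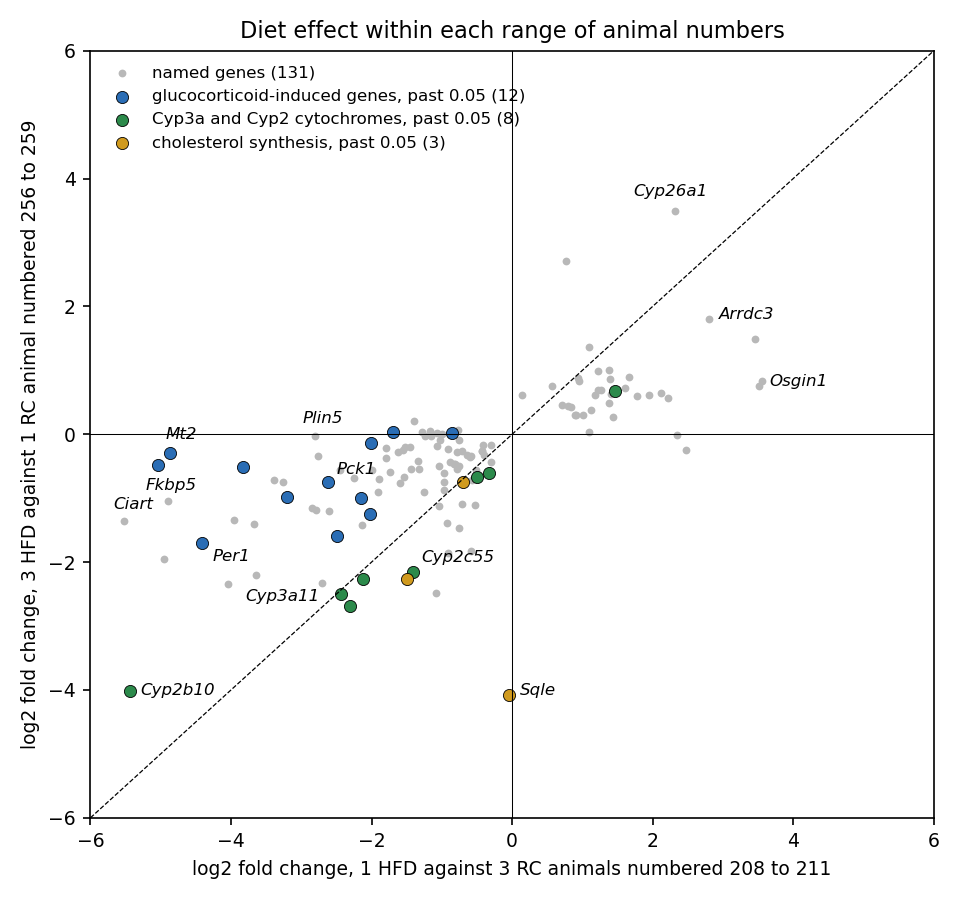
Log2 fold change of HFD against RC for the 131 named genes within the lower number range (1 HFD, 3 RC animals; x axis) and within the upper (3 HFD, 1 RC animal; y axis), with a diagonal for equal values. The called glucocorticoid-induced genes lie above the diagonal, nearer to 0 in the upper range, Cyp3a11 lies close to the diagonal at -2.43 and -2.51, and Sqle lies at -0.04 and -4.07.

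How the response on day 33 stands to those of the same strain on days 5 and 13 was tested by the difference of the diet effects in the same fit. The effect of day 33 differed from that of day 5 for 35 genes (0.278%), 26 of them higher (0.206%) and 9 lower (0.0714%), and from that of day 13 for 265 (2.1%), 198 of them lower (1.57%) and 67 higher (0.531%). On their own, 1574 genes passed on day 5 (12.5%; 6.26% higher and 6.22% lower) and 46 on day 13 (0.365%; 0.0555% higher and 0.309% lower). All differences below use the same 8 animals of day 33. In these the number ranges partly coincide with the diets, whereas on day 13 the animal numbers were spread alike over both diets. Day and number range can therefore not be told apart in these differences. With only the 24 BALB/cJ libraries in the fit, limma called 0 genes against day 5 (962 at an unadjusted p under 0.05) and 2 against day 13 (1599), both among the 265, so that the calls by gene below rest on the spread shared with the other strains. Without 3RC209 the count against day 13 was 61, and without 3RC259 it was 744.

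Glucocorticoid-induced genes were also low on day 5, where 9 of 14 fell and 1 rose (median -1.59), and on day 13 none passed (median 0.27). None of the 14 differed from day 5, and 7 had a lower effect on day 33 than on day 13, among them Per1 (adjusted p = 0.00013), Errfi1 (0.000443), Fkbp5 (0.00298) and Pck1 (0.00342). The mean level of Per1 on RC was 5.31 on day 5, 4.41 on day 13 and 5.29 on day 33, and on HFD 3.65, 4.83 and 2.32. For Pck1 these means were 12.40, 11.08 and 12.08 on RC and 10.57, 11.21 and 9.95 on HFD. For both genes the diets lay closest on day 13, with the RC mean lower and the HFD mean higher than on the other days. The naming rule took Serinc3 and Ginm1 (both adjusted p = 7.73e-05) and Enpp2 (0.000123) for the difference from day 13. Cyp3a11, by contrast, passed on every day, with means of 12.61, 12.48 and 12.85 on RC and 10.36, 10.39 and 10.40 on HFD, and so did Ces2a. Neither passed the test of a difference from day 5 (adjusted p = 0.931 for Cyp3a11 and 0.0631 for Ces2a) or day 13 (0.782 and 0.565). Hsd3b5, a steroid reductase of male mouse liver, differed from day 5 (adjusted p = 0.00148), with -2.48 on day 5 and 1.51 on day 33.

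The strains were compared on day 33 in the same way. The effect in BALB/cJ differed from that in DBA/2J for 740 genes (5.87%), 402 higher (3.19%) and 338 lower (2.68%), and from that in C57BL/6J for 386 (3.06%), 137 of them higher (1.09%) and the others lower (1.97%). On their own 2005 genes passed in DBA/2J (15.9%; 7.2% higher and 8.7% lower) and 115 in C57BL/6J (0.912%; 0.341% higher and 0.571% lower). With only the libraries compared in the fit, 689 genes differed from DBA/2J and 35 from C57BL/6J. Without 3RC209 the counts were 328 and 135. In DBA/2J on day 33 all animals of both diets have numbers of the lower range. In C57BL/6J the numbers were spread unevenly over the diets. Strain and number range can therefore not be told apart in these differences.

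Most genes of mitochondrial fatty acid oxidation rose in DBA/2J on day 33, while none passed in BALB/cJ or C57BL/6J. Of 18 mitochondrial genes 14 rose in DBA/2J (median 0.73) and none passed in BALB/cJ, and 13 had a lower effect in BALB/cJ than in DBA/2J. Acadvl, the very long chain acyl-CoA dehydrogenase, had -0.01 in BALB/cJ and 0.74 in DBA/2J (adjusted p = 4.99e-05 for the difference), and Hadhb, of the trifunctional protein, -0.06 and 1.04 (6.06e-05). Compared with DBA/2J, the BALB/cJ effect was also lower for 10 of 20 peroxisomal genes, 9 of 14 other targets of the fatty acid receptor PPAR alpha and 5 of 11 Cyp4a and acyl-CoA thioesterase genes. Of these lists 8, 7 and 6 genes rose in DBA/2J. Pex11a, which divides peroxisomes, had -1.23 and 0.63 (adjusted p = 0.000244). Cyp4a14 stood at 9.46, 8.66, 5.36 and 3.73 on HFD and at 7.10, 7.89, 7.61 and 3.29 on RC in BALB/cJ. The animals of each diet ranged widely, and 3RC259 was low, so that its diet effect was 0.33 ± 1.26. Of the 18 mitochondrial genes 6 rose in BALB/cJ on day 5 (median 0.22), and none differed in effect between day 5 and day 33. On day 33 none of the 18 differed between BALB/cJ and C57BL/6J, where the median was 0.19.

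Interferon-stimulated genes differed in the other direction. In DBA/2J 11 of 31 fell and none rose, and 13 had a higher effect in BALB/cJ than in DBA/2J, such as Gbp7 (0.94 against -0.98, adjusted p = 8.5e-05), Rtp4 (0.77 against -0.53, 0.000912) and Xaf1 (0.94 against -0.60, 0.000964). None of them differed from C57BL/6J. Glucocorticoid-induced genes did not differ between BALB/cJ and DBA/2J at the threshold, and 7 of 14 had a lower effect in BALB/cJ than in C57BL/6J, where none passed (median 0.30), with adjusted p = 0.000193 for Per1 and 0.00148 for Pck1. Mlxipl had a higher effect in BALB/cJ than in both DBA/2J (adjusted p = 0.0137) and C57BL/6J (0.0467). Amdhd1, of histidine breakdown, gave the smallest p against C57BL/6J among the named genes, with 0.82 and -0.59 (7.31e-06). Cyp3a11 passed in all 3 strains on day 33, at -2.45, -3.14 in DBA/2J and -2.33 in C57BL/6J, and differed from neither at the threshold (adjusted p = 0.4 and 0.934).

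**Figure D4:**
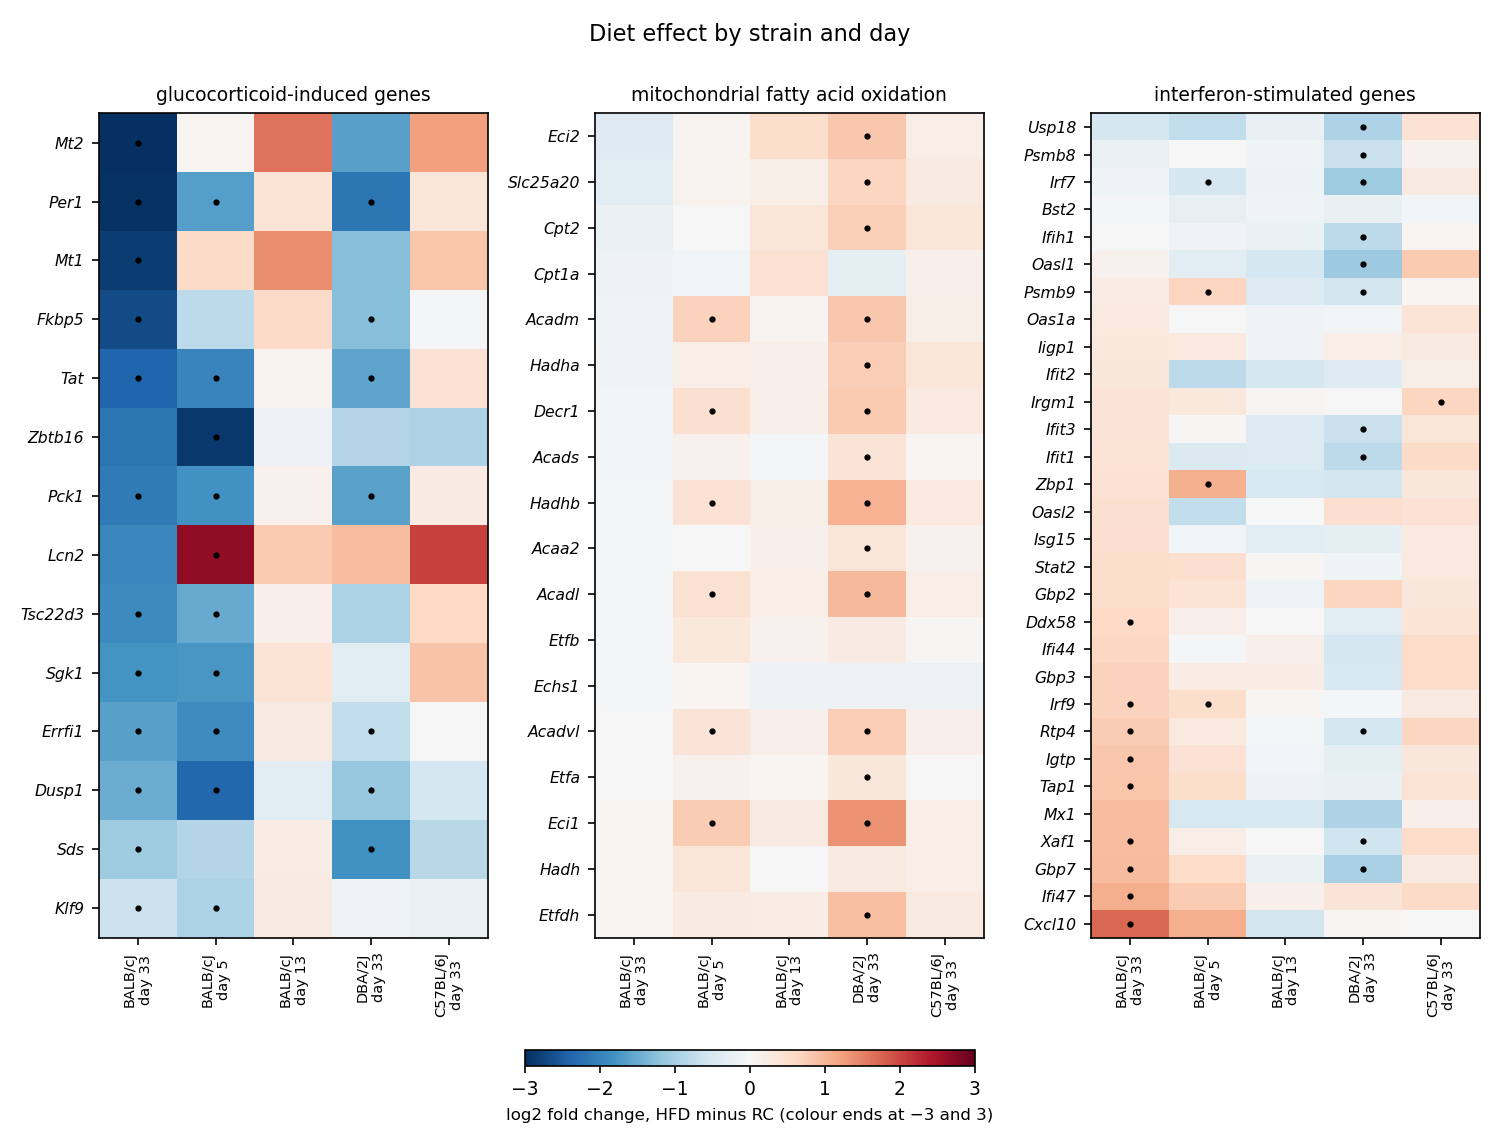
Log2 fold change of HFD against RC (colour, ends at -3 and 3) for 14 glucocorticoid-induced, 18 mitochondrial fatty acid oxidation and 30 of 31 interferon-stimulated genes, in BALB/cJ on day 33, day 5 and day 13, and on day 33 in the other strains, with a dot where the adjusted p was under 0.05. The glucocorticoid-induced genes are low in BALB/cJ on days 33 and 5 and not on day 13, the oxidation genes are high in DBA/2J, and of the interferon-stimulated genes 10 rose in BALB/cJ and 11 fell in DBA/2J on day 33.

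**Figure D5:**
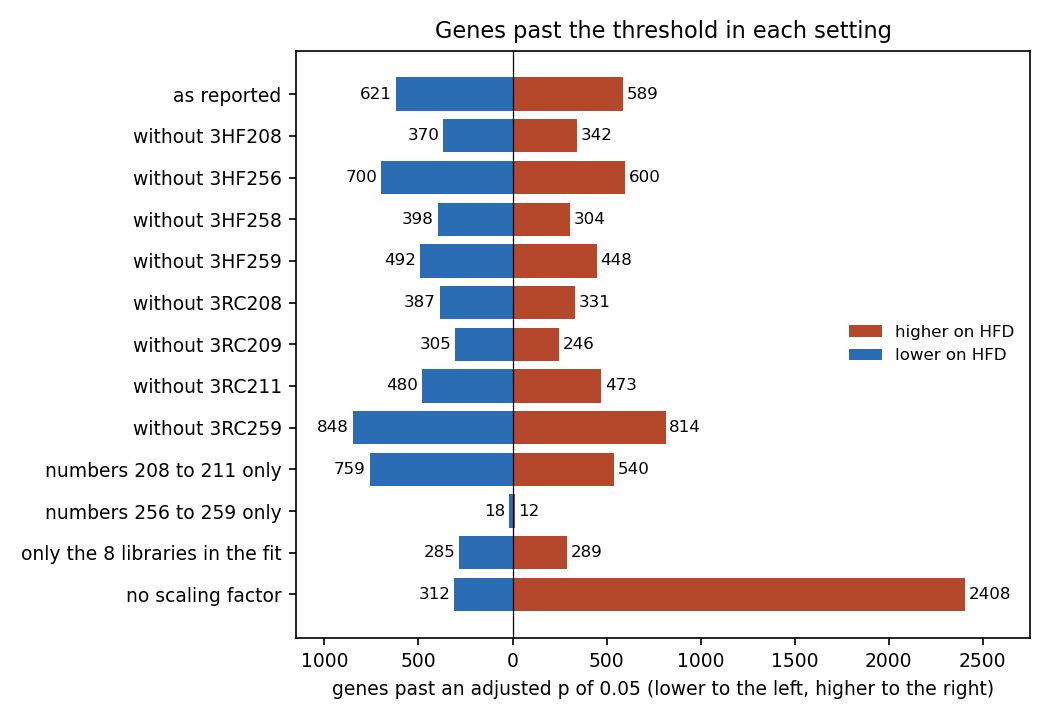
Number of genes higher (bars to the right) and lower (bars to the left) on HFD at an adjusted p under 0.05 in 13 settings of the analysis of BALB/cJ liver on day 33. The counts are 589 and 621 in the analysis reported, 12 and 18 within the upper number range, and 2408 and 312 without the scaling factors.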

How the data were processed

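Liver RNA was measured by poly(A) stranded RNA sequencing with 100 base single reads, per the labels' protocols. The submitters' processing notes name STAR 2.5.3a, edgeR and build GRCm38. Which step used which tool, and how counts were made and scaled, is not given in the sources used here. Values deposited by the authors are log2 CPM with a small prior count. Per the file headers each title names the column 1 to its right. Whole reads could be recovered from them (100% of values within 0.05 reads, among values under 2000 reads). Symbols for 12602 of 12611 genes came from GENCODE annotation of GRCm38.

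Group means were fitted with limma 3.58.1 (R 4.3.3) and a variance trend to 72 liver libraries in 18 groups (54 residual degrees of freedom), with Benjamini-Hochberg adjustment over all tested genes and a threshold of 0.05. The filter (log2 CPM of at least 0 in 4 libraries) removed no gene. Errors of log2 fold changes are standard errors. The fit was tested on simulated data.

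Genes were named by a rule: the 12 highest and 12 lowest changes among called genes of at least median level without overlap, up to 4 called members of smallest p from each of 61 lists, and 4 genes of smallest p from each difference between days or strains. Other members are given for their role. The animals, lists and rule were chosen with earlier results of these data known. Alternatives were filters, normalizations, voom weights, other sets of libraries, number ranges, a replicate block, sample weights and each animal left out. Further liver libraries without a column, 2 of them from 3RC259, were not analysed here. Some genes that the rule names are not reported here.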

Additional observations from a re-analysis of the deposited data

Results flagged for a closer look

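Several RC values of 3RC259 stood far from the other 3 RC animals, at a gap that 4 samples exceed by chance in about 1 of 20 groups. Where many genes are looked at, some such gaps arise by chance, and their number was not tested. Its level was 4.47 for Aatk, 6.15 for Arrdc3, 7.70 for Osgin1, 7.34 for Pex11a, 6.07 for Pim3 and 5.62 for Tcim (log2 CPM). For each of these 6 genes it lay on the side of the HFD animals. On HFD, Hsd3b5 was low in 3HF256 (6.47) and Osgin1 high in 3HF259 (8.98).

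The diet effect on day 33 differed from that on day 5 for 35 genes. The difference in log2 fold change was 3.99 for Hsd3b5 (adjusted p = 0.00148), -0.70 for the membrane scaffold Flot2 (0.00662), -0.70 for Grina (0.0101) and -0.63 for the lipid transfer protein Osbpl9 (0.00855). It differed from day 13 for 265 genes, with -1.51 for the lysophospholipase Enpp2 (0.000123), -1.37 for Serinc3 (7.73e-05) and -1.07 for Ginm1 (7.73e-05).

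It differed from DBA/2J for 740 genes, with -1.86 for Pex11a (0.000244), -0.83 for the mitochondrial chaperone Dnaja3 (4.99e-05), -0.71 for Chp1 (0.000562) and 1.02 for Ttc38 (0.000196). It differed from C57BL/6J for 386 genes, with 1.41 for Amdhd1 (7.31e-06), -2.37 for the kinase Aatk (0.000197), -1.56 for the growth factor Fgf1 (0.000193) and -1.04 for Dpy19l1 (0.000193).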

How the results depend on the processing

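Counts of called genes for the diet effect (1210) and its differences from day 5 (35), day 13 (265), DBA/2J (740) and C57BL/6J (386) moved by over 1.5 times as follows; the cause was not tested. Sample weights gave 2877, 466, 1185, 2334 and 1384. Only the libraries compared in the fit gave 574 for the diet effect and 0, 1 and 35 for day 5, day 13 and C57BL/6J. Only the 24 BALB/cJ libraries gave 429, 0 and 2 for the first 3. Genes of at least median level, with fewer genes tested, gave 739 for the diet effect (486 of them lower) and 491 for DBA/2J. Quantile normalization gave 53 for day 5. Without scaling factors 2720 genes passed (2408 higher, 312 lower), and 446 for day 13. The upper number range gave 30 genes and has 1 RC animal.

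Leaving out each animal gave 551 to 1662 genes for the diet effect, 25 to 96 for day 5 and 61 to 744 for day 13. For DBA/2J it gave 328 to 990 and for C57BL/6J 135 to 769. All 1210 genes kept their direction in each of these 8 fits, which was likely beforehand, as the same animals gave the calls. The diet count was 712 without 3HF208, 702 without 3HF258, 718 without 3RC208 and 551 without 3RC209.

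Numbers occur in both diets for 3HF208 with 3RC208 and 3HF259 with 3RC259. Deviations from the group means correlated at 0.103 and 0.268 in these 2 pairs, which share only a number. A replicate block gave 1454 genes for the diet effect and 78 for day 5, and all 131 named genes still passed.

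Within the upper range 9 named genes changed sign: Aass (0.0161), Abcc2 (0.0614), Cxcl10 (-0.25), Fgf1 (0.0424), Foxo1 (0.0343), Hlf (0.0086), Hsd3b5 (-0.0188), Ppargc1a (0.20) and Rora (0.0565). Of the 131 named genes 115 others lost the call there, 56 with only the 8 libraries, 19 without scaling factors and 5 to 42 with 1 animal left out.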

Other observations

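Cebpd, a transcription factor that glucocorticoids induce, had the smallest adjusted p of all tested genes and is named here after its values were seen. It stood at 1.68, 1.63, 1.54 and 1.45 on HFD and at 4.46, 4.51, 4.51 and 3.15 on RC. The diets did not overlap, and it fell by 2.58 ± 0.31 (log2, SE; adjusted p = 2.27e-07, limma). Its log2 fold change was -1.96 on day 5, 0.16 on day 13, -0.78 in DBA/2J and 0.45 in C57BL/6J.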
